A study of Homo sapiens with 8 samples.

Results

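The BCL2 family of apoptosis regulators was followed on arrays of NGP cells, an established human neuroblastoma line. The family was read through 10 genes in 3 roles: the guardians BCL2, BCL2L1 and MCL1, the effectors BAX and BAK1, and the BH3-only genes BBC3, PMAIP1, HRK, BMF and BCL2L11. The members were every probe annotated to 1 of these genes, 16 of 50599 probes tested, and each gene had at least 1 probe. Of the 16, 4 belonged to guardians, 3 to effectors and 9 to BH3-only genes. The groups were 4 arrays labelled as NGP cells that received CFC1 cDNA by lentivirus and 4 arrays labelled as mock-infected NGP cells. All cells were selected with puromycin, and whether the transduced cells were clones or pools, or the 4 samples of a group separate cultures, is not said. The p-values therefore cover no more than the array-to-array spread, possibly a technical one. Each value is a difference on the log2 scale from a baseline of that probe that is not stated, so it gives no level of expression. Every difference is the mean of the 4 arrays labelled CFC1 minus that of the 4 mock arrays, and "higher" and "lower" compare the groups without showing which of them moved.

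The BCL2 family controls the mitochondrial step of apoptosis. Guardians bind and restrain the effectors, which otherwise form pores in the outer mitochondrial membrane and release cytochrome c. BH3-only proteins sense stress, occupy the guardians or engage the effectors directly, and so favour death. BBC3 (PUMA) and PMAIP1 (NOXA) are known p53 targets, HRK (Harakiri) is known for its role in neurons deprived of growth factor, BMF is bound to the cytoskeleton through a dynein light chain, and BCL2L11 (BIM) is induced by FOXO factors. BCL2 is widely expressed in neuroblastoma, and NGP is known for extra copies of MYCN and of MDM2, an inhibitor of p53.

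The promoters of 4 members are shown: HRK and BCL2, whose probes were lower by over 2-fold, BBC3, which was higher by over 2-fold, and PMAIP1, which was higher and lies near BCL2 on chromosome 18. Each is the 250 bases before the gene start in RefSeq, build GRCh38.p14, written 5′ to 3′ along the gene. Capitals mark the GC box GGGCGG, the E-box CACGTG and the AP-1 site TGANTCA, on either strand.
BCL2, chr18:63319770-63320019, minus strand: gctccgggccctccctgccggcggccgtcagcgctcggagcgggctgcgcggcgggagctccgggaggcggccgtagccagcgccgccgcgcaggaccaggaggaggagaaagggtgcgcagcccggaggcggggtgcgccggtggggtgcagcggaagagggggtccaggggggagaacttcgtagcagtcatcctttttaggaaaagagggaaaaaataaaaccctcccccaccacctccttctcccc
BBC3, chr19:47232668-47232917, minus strand: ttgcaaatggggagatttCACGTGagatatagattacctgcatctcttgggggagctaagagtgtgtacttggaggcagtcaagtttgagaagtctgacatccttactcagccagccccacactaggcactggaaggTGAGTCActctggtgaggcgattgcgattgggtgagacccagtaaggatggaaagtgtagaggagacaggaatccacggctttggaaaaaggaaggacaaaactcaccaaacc
PMAIP1, chr18:59899746-59899995, plus strand: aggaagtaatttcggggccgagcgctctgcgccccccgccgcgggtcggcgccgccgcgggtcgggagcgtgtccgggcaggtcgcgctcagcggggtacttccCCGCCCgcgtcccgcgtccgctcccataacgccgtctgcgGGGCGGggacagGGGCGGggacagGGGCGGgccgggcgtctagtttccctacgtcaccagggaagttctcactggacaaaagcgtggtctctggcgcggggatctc
HRK, chr12:116881442-116881691, minus strand: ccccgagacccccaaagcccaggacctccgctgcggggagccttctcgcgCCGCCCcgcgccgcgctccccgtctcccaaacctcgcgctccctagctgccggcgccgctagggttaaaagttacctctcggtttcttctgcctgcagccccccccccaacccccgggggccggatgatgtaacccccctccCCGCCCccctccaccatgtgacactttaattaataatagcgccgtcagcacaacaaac
The BCL2 window held none of these motifs, the BBC3 window 1 E-box and 1 AP-1 site, the PMAIP1 window 4 GC boxes and the HRK window 2. Of 35116 RefSeq promoters of the same length, 42.6% held a GC box, 6.34% an E-box and 6.57% an AP-1 site. The FOXO site GTAAACA (2.98% of promoters) and the p53 half-site (5.57%) matched none of the 4 windows. Among the 9 of 10 members matched in the RefSeq table, the FOXO site occurred for BCL2L11, the p53 half-site for BAK1 and 4 E-boxes for BAX. The guanine and cytosine content was 49.2% for BBC3, 66.4% for HRK, 70% for BCL2 and 72.8% for PMAIP1, against a median of 58% over all promoters. A match is a description of letters, not a binding site.

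CFC1, the transduced gene, was not called higher in the arrays that carry its name. Its probe gave 0.055, -0.688, -0.593 and -0.296 there, against 0.474, 1.101, 0.116 and -0.027 in the mock arrays, and the groups overlapped. The difference was -0.80 (limma adjusted p = 0.0546; exact two-sided permutation p = 0.0571, where 0.029 is the smallest possible). The probe's place in the transcript is not known here, and one outside the introduced cDNA checks nothing, so every direction below rests on the labels. Of 9 measured neuroblastoma markers, 1 was higher (MYCN, 0.16), 6 were lower (STMN2, a neuronal tubulin-binding protein, at -3.92) and 2 did not pass, beside 29.7% of all genes higher and 28.2% lower as means of their probes. The call of MYCN was lost with arrays centred on their medians (adjusted p = 0.0982) and after quantile normalization (adjusted p = 0.0642). No level can be read from these values, so the presence of a marker was not judged.

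Within the BCL2 family, HRK, BCL2 and BMF were lower and BBC3, PMAIP1 and BAK1 higher in the arrays labelled CFC1. Of the 16 probes, 12 passed an adjusted p of 0.05, where 42.1% of all probes passed. They were 6 higher and 6 lower, beside 20.0% and 22.1% of all probes. Those shares include probes not assigned 1 gene symbol, whereas every member has one. Among the 31993 probes with 1 gene symbol, fitted alone, 17943 passed, 9059 higher and 8884 lower. The groups did not overlap for 12 member probes and for 42.6% of all probes. As means of their probes, 9 of 10 member genes and 12157 of 21524 genes did not overlap. At least 2-fold differences were found for 1 higher probe (BBC3) and 4 lower probes (both of HRK and both of BCL2), where 7.22% and 8.42% of all probes passed in those directions. The median absolute difference was 0.67 over the members and 0.35 over all probes. Of the 12 called probes, 9 kept their call and direction under all 17 alternative settings, and the other three were those of BCL2L1 and MCL1 and 1 of BCL2L11. These are RNA values of bulk cultures, in which fewer cells of a type and less RNA per cell cannot be told apart.

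**Figure D1:**
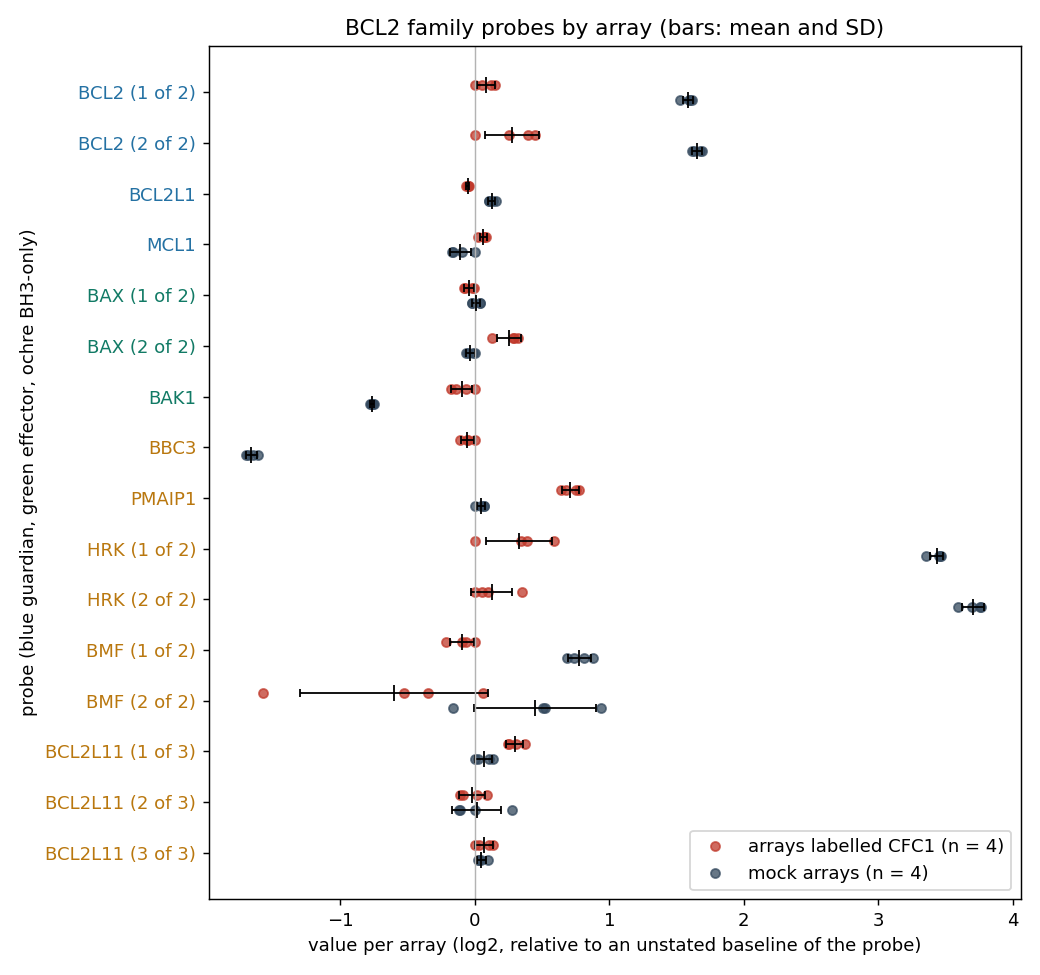
Values of the 16 BCL2 family probes on each array, on the log2 scale relative to an unstated baseline of the probe (horizontal axis), with the arrays labelled CFC1 in red above the mock arrays in dark blue and bars for mean and SD (n = 4 each). The mock arrays lie at 3.36 to 3.77 for both HRK probes and at -1.70 to -1.61 for BBC3, while the arrays labelled CFC1 lie between -0.11 and 0.59 for these probes.

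The guardian BCL2, the founding inhibitor of apoptosis, was lower on both of its probes. Probe A_23_P352266, annotated to the alpha transcript, gave 0.121, 0.000, 0.050 and 0.147 in the arrays labelled CFC1, against 1.602, 1.529, 1.595 and 1.615 in the mock arrays. Every array labelled CFC1 lay below every mock array, by more than 1 unit. The difference was -1.51 (95% interval -1.62 to -1.39, adjusted p = 2.42e-07), or 2.84-fold lower. Probe A_33_P3355185, annotated to the beta transcript, gave 0.395, 0.256, 0.449 and 0.000 in the arrays labelled CFC1, against 1.675, 1.613, 1.631 and 1.691 in the mock arrays. The groups were again apart, with the wider spread in the arrays labelled CFC1 (SD 0.201, against 0.037 in mock). Its difference was -1.38 (95% interval -1.61 to -1.14, adjusted p = 1.51e-05). After quantile normalization the 2 differences were smaller, at -0.998 and -0.802, and both calls held (adjusted p = 2.51e-05 and 0.00357).

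The other guardians moved little. BCL2L1, whose probe is annotated to the BCL-XL transcript, gave -0.068, -0.054, -0.051 and -0.041 in the arrays labelled CFC1, against 0.135, 0.107, 0.158 and 0.104 in the mock arrays. The groups did not overlap, and the difference was -0.18 (SE 0.038, adjusted p = 0.00602), close to the median of -0.13 over all probes. Its call was lost when arrays were centred on their medians (-0.138, adjusted p = 0.284) and after quantile normalization (-0.084, adjusted p = 0.391). MCL1, a short-lived guardian that PMAIP1 binds, gave 0.026, 0.070, 0.070 and 0.084 in the arrays labelled CFC1, against 0.000, -0.173, -0.160 and -0.097 in the mock arrays. It was higher by 0.17 (SE 0.052, adjusted p = 0.0330), and only mock replicate 1 came near the arrays labelled CFC1. That call was lost under 10 of 17 alternatives, among them the fit with a replicate block (adjusted p = 0.0704) and the omission of any array other than mock replicate 1 (0.148 to 0.183, adjusted p from 0.0538 to 0.0844). After quantile normalization the difference was 0.29 (adjusted p = 0.0133).

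Of the effectors, BAK1 was higher and the 2 probes of BAX differed. BAK1 gave -0.175, -0.141, -0.069 and 0.000 in the arrays labelled CFC1, against -0.783, -0.770, -0.749 and -0.756 in the mock arrays. All mock arrays lay below all arrays labelled CFC1, and the difference was 0.67 (95% interval 0.55 to 0.79, adjusted p = 2.04e-05), or 1.59-fold. BAK1 has the pseudogenes BAK1P1 and BAK1P2, and whether the probe also detects them was not determined. BAX probe A_33_P3341144 gave 0.126, 0.292, 0.324 and 0.284 in the arrays labelled CFC1, against -0.053, -0.014, -0.066 and 0.000 in the mock arrays. The groups were apart, with CFC1 replicate 1 nearest to mock, and the difference was 0.29 (SE 0.056, adjusted p = 0.00368), which became 0.53 after quantile normalization (adjusted p = 0.00209). BAX probe A_23_P208706, annotated to another transcript, gave -0.082, -0.071, -0.020 and -0.009 in the arrays labelled CFC1, against -0.018, -0.021, 0.036 and 0.038 in the mock arrays. Here the groups overlapped and the difference was -0.05 (95% interval -0.15 to 0.05, adjusted p = 0.382), so the interval leaves out a change of the size seen on the other BAX probe. The mean of both BAX probes was higher by 0.12 (adjusted p = 0.0315 in a fit over gene means).

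Of the BH3-only genes, BBC3 and PMAIP1 were higher. BBC3 gave 0.000, -0.110, -0.060 and -0.049 in the arrays labelled CFC1, against -1.689, -1.700, -1.612 and -1.646 in the mock arrays. The groups were separated by over 1 unit, with an SD of 0.045 in the arrays labelled CFC1 and 0.041 in the mock arrays. The difference was 1.61 (95% interval 1.5 to 1.71, adjusted p = 1.04e-07), or 3.05-fold, and 91.2% of all probes had a smaller absolute difference. PMAIP1 gave 0.751, 0.776, 0.676 and 0.638 in the arrays labelled CFC1, against 0.071, 0.000, 0.046 and 0.066 in the mock arrays. Again no array of 1 group reached the other, and the difference was 0.66 (95% interval 0.55 to 0.78, adjusted p = 1.61e-05), or 1.59-fold. Quantile normalization gave 1.05 for PMAIP1 (adjusted p = 5.77e-06).

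HRK had the largest difference of the family, and it was lower. Probe A_33_P3687198 gave 0.051, 0.348, 0.0997 and 0.000 in the arrays labelled CFC1, against 3.591, 3.759, 3.693 and 3.765 in the mock arrays. Probe A_23_P25194 gave 0.341, 0.000, 0.587 and 0.391 in the arrays labelled CFC1, against 3.460, 3.358, 3.465 and 3.450 in the mock arrays. Both probes put all 4 mock arrays about 3 units above all 4 arrays labelled CFC1. The differences were -3.58 (95% interval -3.78 to -3.37, adjusted p = 5.16e-08) and -3.10 (95% interval -3.38 to -2.82, adjusted p = 5.01e-07), or 11.9-fold and 8.59-fold lower. Of all probes, 98.3% and 97.4% had a smaller absolute difference. How near HRK lay to background in the arrays labelled CFC1 is unknown, so the folds are fitted values and not bounds.

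BMF was lower on 1 of its 2 probes. Probe A_23_P379649 gave -0.211, 0.000, -0.099 and -0.069 in the arrays labelled CFC1, against 0.739, 0.684, 0.881 and 0.808 in the mock arrays. The groups did not overlap, and the difference was -0.87 (95% interval -1.03 to -0.72, adjusted p = 2.02e-05). Probe A_33_P3346801 pointed the same way but scattered, with -0.349, 0.059, -0.527 and -1.579 in the arrays labelled CFC1, against 0.935, -0.164, 0.506 and 0.518 in the mock arrays. CFC1 replicate 2 lay above mock replicate 2, and the difference of -1.05 (95% interval -1.94 to -0.15) did not pass (adjusted p = 0.0639). It passed without CFC1 replicate 2 (-1.27, adjusted p = 0.0373) or without mock replicate 2 (-1.25, adjusted p = 0.0429). It also passed narrowly when only probes with 1 gene symbol were fitted (-1.05, adjusted p = 0.0493). Without CFC1 replicate 4 the difference was -0.721 and did not pass (adjusted p = 0.09).

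The 3 probes of BCL2L11 gave small differences. Probe A_24_P122921 gave 0.246, 0.307, 0.376 and 0.253 in the arrays labelled CFC1, against 0.024, 0.000, 0.102 and 0.136 in the mock arrays. The groups were apart and the difference was 0.23 (SE 0.054, adjusted p = 0.00973), and 0.51 after quantile normalization (adjusted p = 0.000663). The other two, both annotated to 1 further transcript, overlapped between the groups. Probe A_33_P3251932 differed by -0.04 (95% interval -0.27 to 0.20, adjusted p = 0.80) and probe A_33_P3398526 by 0.02 (95% interval -0.10 to 0.13, adjusted p = 0.778). The mean of the 3 probes did not pass (0.07, adjusted p = 0.177 in the fit over gene means).

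**Figure D2:**
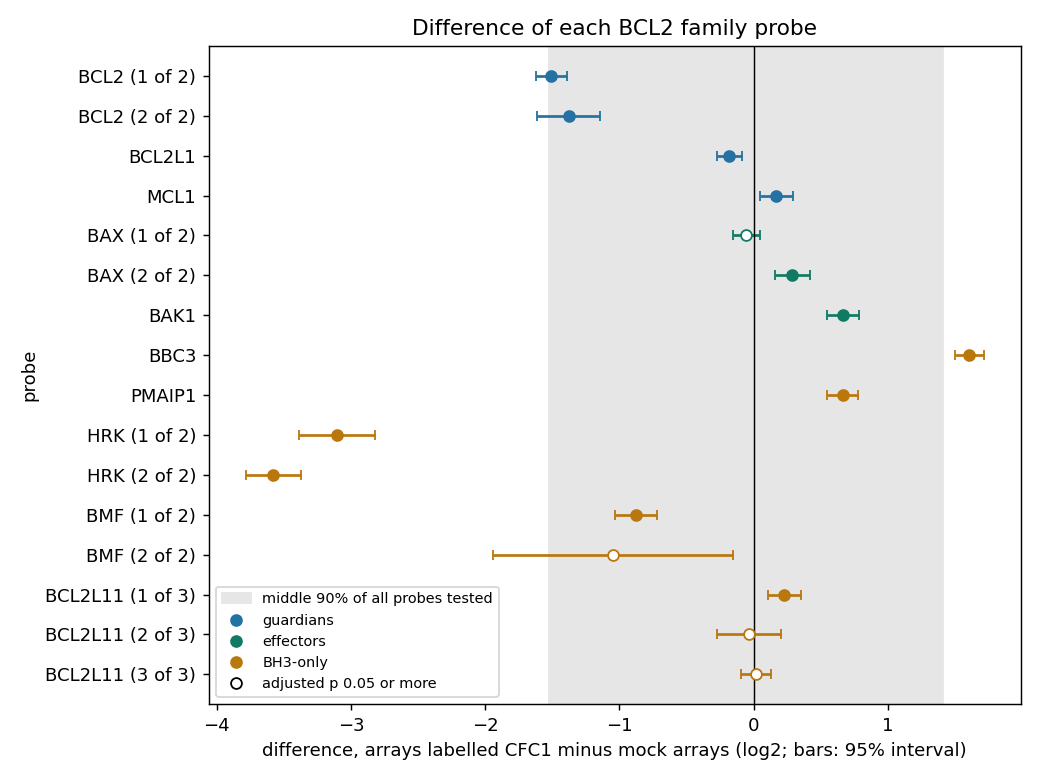
Difference of each BCL2 family probe between the arrays labelled CFC1 and the mock arrays on the log2 scale (horizontal axis, points with 95% intervals, open where the adjusted p is 0.05 or more), coloured by role. The grey band is the middle 90% of all probes, from -1.52 to 1.41, and both HRK probes and BBC3 lie outside it.

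Set side by side, the roles did not divide cleanly by direction. Of 4 guardian probes, 1 was higher (MCL1) and 3 lower, with a median of -0.78, set mostly by BCL2. Of 3 effector probes, 2 were higher, none lower and 1 did not pass, with a median of 0.29. Of 9 BH3-only probes, 3 were higher (BBC3, PMAIP1 and 1 of BCL2L11), 3 lower (both of HRK and 1 of BMF) and 3 did not pass, with a median of -0.04 and a range from -3.58 to 1.61. Without the HRK probes the BH3-only median was 0.02, with 3 of 7 higher and 1 lower. With each gene counted once, as the mean of its probes, 5 genes were higher (MCL1, BAX, BAK1, BBC3 and PMAIP1), 4 lower (BCL2, BCL2L1, HRK and BMF) and BCL2L11 did not pass. In that fit 29.7% of all genes were higher and 28.2% lower, and the guardian median was -0.18, that of BCL2L1. With so few genes in a role, no test between roles was made.

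To set each member beside its surroundings on the chromosome, the 10 measured genes on each side of it in the RefSeq order were read as gene means. In the fit over gene means, 29.7% of all genes were called higher and 28.2% lower. BCL2 and PMAIP1 lie on chromosome 18 with 8 measured genes between them, of which 1 was higher and 4 lower. The 20 neighbours of PMAIP1 had a median of -0.41, with 3 higher, 10 lower (BCL2 among them) and 7 that did not pass. The neighbours of BCL2 had a median of -0.17, with 3 higher and 5 lower, and BCL2 itself (-1.44 as the mean of its probes) lay just below the lowest of them (-1.41). BMF, on chromosome 15, was lower among neighbours of which none was higher and 10 were lower, with a median of -0.47. The neighbours of BCL2L11, on chromosome 2, were mostly higher (12 higher, 2 lower, median 0.30). BCL2L1 (-0.18) lay among neighbours with 8 higher and 1 lower (median 0.21), and MCL1 (0.17) among 9 higher and 3 lower (median 0.13). BAX (0.12 as the mean of its probes) lay among 3 higher and 10 lower (median -0.20), and BAK1 (0.67) among 6 higher and 4 lower (median -0.05). BBC3 (1.61) and HRK (-3.34 as the mean of its probes) also lay outside the whole range of their 20 neighbours, which ran from -1.64 to 0.93 and from -2.44 to 1.99. The part of chromosome position in the members' values was not tested.

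**Figure D3:**
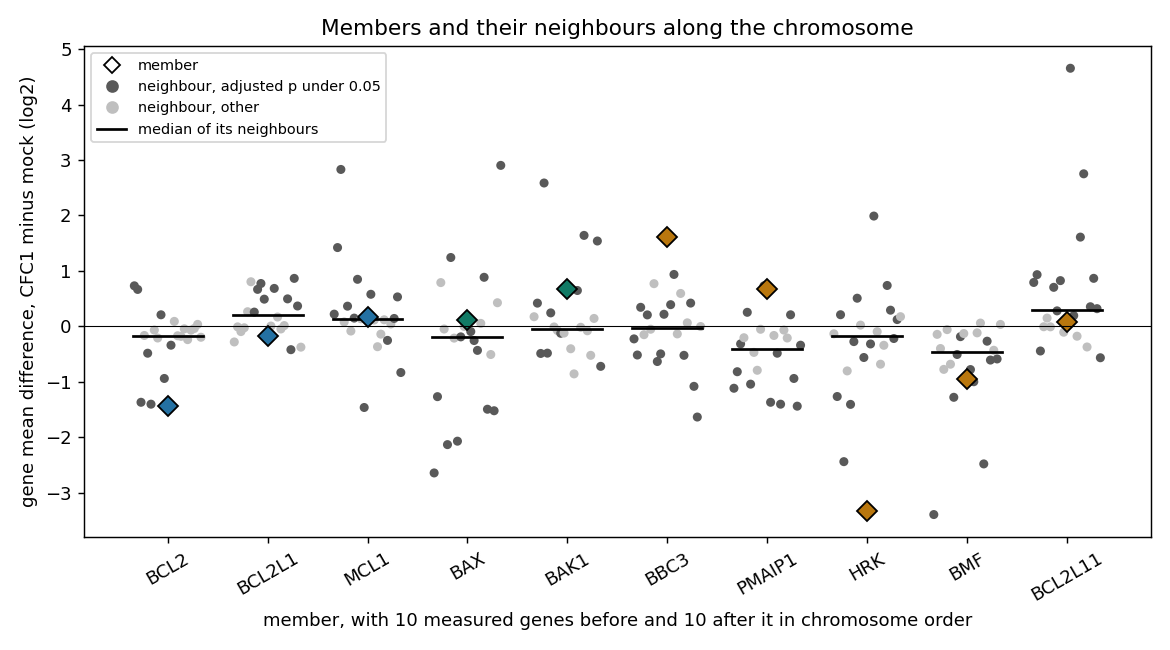
Gene mean differences on the log2 scale (vertical axis) of the 10 members (diamonds, coloured by role) and of the 10 measured genes on each side of them in chromosome order (dots, dark where the adjusted p is under 0.05), with the median of the 20 neighbours as a line. HRK, BBC3 and, narrowly, BCL2 lie beyond all of their neighbours, and 10 of the 20 neighbours of BMF were called lower and none higher. Of all genes, 29.7% were called higher and 28.2% lower.

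Other genes of the family and the pathway were counted as gene means, where 57.9% of all genes passed. Of 7 further BCL2 family genes, 1 was higher, 1 lower and 5 did not pass. BOK, a further effector relative, gave 0.000, -0.024, -0.016 and -0.019 in the arrays labelled CFC1, against -3.038, -2.714, -2.881 and -2.960 in the mock arrays. Its groups lay far apart, and the difference was 2.88 (SE 0.068, adjusted p = 2.35e-08). BCL2L2 (BCL-w), a guardian, was lower at -0.75 (adjusted p = 3.57e-06). BID (0.08), BIK (0.24), BCL2A1 (-0.07) and BCL2L10 (-0.29) did not pass. BID passed with unmoderated variances (adjusted p = 0.0221) and without mock replicate 4 (0.101, adjusted p = 0.0471), and BIK without CFC1 replicate 3 (0.403, adjusted p = 0.0301). BAD, a BH3-only gene, had probes called in opposite directions (0.67 and -0.93), and their mean of -0.13 did not pass (-0.427 after quantile normalization, where it passed with an adjusted p of 0.0105).

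Downstream of the mitochondria, 4 of 13 measured genes were higher, 2 lower and 7 did not pass. BIRC2, an inhibitor of apoptosis that ubiquitinates signalling proteins, was higher by 1.31, and BIRC5 (survivin) by 0.58. CYCS, which encodes cytochrome c, was higher by 0.54 as the mean of 3 probes that ran from -0.74 to 1.19. DIABLO, which antagonises the inhibitors of apoptosis once released, was lower at -1.09, but its probes stood at -2.42 and 0.24. The means of CYCS and DIABLO therefore describe none of their probes.

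Of 24 measured genes of the p53 list, 12 were higher, 10 lower and 2 did not pass. TNFRSF10B, a death receptor, was higher by 4.91, GDF15, a stress cytokine, by 2.99, and EDA2R, a receptor of the TNF family, by 2.53 (probes at 0.47 and 4.58). The first EDA2R probe was not called (adjusted p = 0.52 in the fit over probes), so the mean describes neither probe. SPATA18, a mitochondrial quality control gene, was lower at -3.43. MDM2 gave 0.048, 0.087, 0.056 and 0.056 in the arrays labelled CFC1, against 2.0003, 2.0003, 1.951 and 1.966 in the mock arrays, a difference of -1.92 (SE 0.029, adjusted p = 3.52e-09). Among the members, the p53 targets BBC3, PMAIP1 and BAX (1 of 2 probes) were higher.

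Of 13 transcription factors and stress genes linked to BH3-only genes, 5 were higher, 6 lower and 2 did not pass. E2F1 was higher by 1.40 and CHAC1, a target of ATF4, by 0.86, while FOXO1 was lower at -1.18 and MYC at -1.08 (probes at -1.42 and -0.74, the second not called, with an adjusted p of 0.269). MYCN was higher by 0.16 (adjusted p = 0.0162), with the losses of its call given above. Of 9 genes that act on the turnover of MCL1 and BIM, 3 were higher and 5 lower. MAPK8 (JNK1), a kinase that phosphorylates BIM and BMF, was lower at -1.09, BTRC, a ubiquitin ligase subunit, at -0.75, and USP9X, which deubiquitinates MCL1, at -0.41, a call lost after quantile normalization (-0.173, adjusted p = 0.0556). DYNLL2, the dynein light chain that binds BMF, was higher by 0.59. Of 10 mitochondrial outer membrane genes and partners, 4 were higher, with BNIP3, a BH3-like mitophagy receptor, at 1.39 and VDAC1, a channel, at 0.52. Another 4 were lower, with MFN2, a fusion protein, at -0.69 (probes at -0.27 and -1.10) and PINK1, a mitophagy kinase, at -0.50. The call of PINK1 was lost after quantile normalization (-0.163, adjusted p = 0.13). The same normalization kept the calls but moved the differences of BIRC5 (0.941), EDA2R (1.44), FOXO1 (-1.94), MAPK8 (-0.66), BTRC (-0.347) and MFN2 (-0.428) by over 1.5 times.

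**Figure D4:**
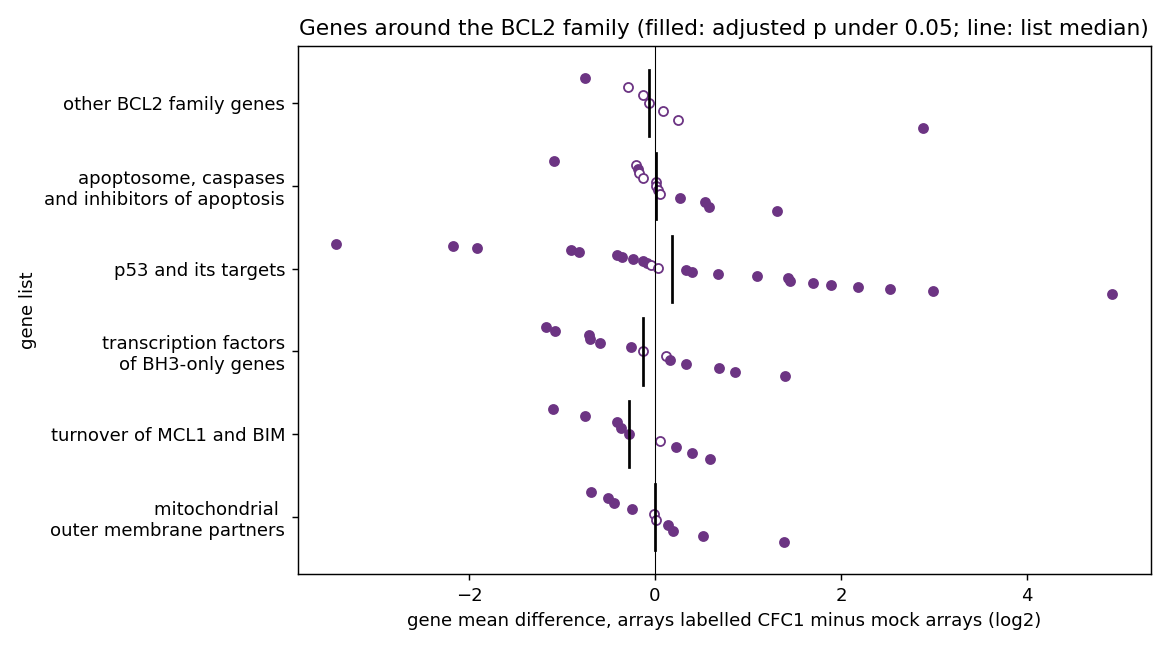
Gene mean differences on the log2 scale (horizontal axis) for 6 lists of genes around the BCL2 family, each dot a gene (filled where the adjusted p is under 0.05) and each line a list median. The list of p53 targets spans the widest range, from -3.43 to 4.91, and all 6 medians lie between -0.28 and 0.19.

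Markers of other cell types were read from the same fit over gene means, where 29.7% of all genes were higher and 28.2% lower. Their part in the members' values was not tested. Of 10 fibroblast and mural markers, 1 was higher and 8 lower (RGS5 at -3.83). Of 5 Schwann and glial markers, 4 were lower. Of 5 endothelial markers, 2 were lower (KDR at -3.08). Of 6 epithelial markers, 2 were higher (KRT19 at 2.84) and 3 lower (EPCAM at -2.86), and of 4 immune markers, CD14 was higher at 1.16 and CD68 lower at -0.42.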

How the data were processed

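Total RNA of 8 samples was labelled with Cyanine3 and hybridised to one-color Agilent arrays, per the labels' protocols. The deposited table holds log values that were read as log2. How the authors extracted, background-corrected, scaled and centred these values, and the base of the logarithm, is not given in the sources used here. No probe has all 8 arrays above or below 0, so each is set against a baseline of its own. Flags for background or saturation are not among its columns. Precision is limited by the number of arrays.

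The 140 control spots were removed, and 50599 probes were compared between the groups with limma 3.58.1 in R 4.3.3 (lmFit, eBayes without trend, equal weights). Adjusted p-values are two-sided Benjamini-Hochberg values over all probes, with a threshold of 0.05. Of these probes, 31993 had 1 gene symbol, and 18606 had none or more than 1 in the annotation table or were absent from it. The mean over each gene's probes gave 21524 genes for a second fit, used for gene lists and neighbours. Names were updated through the RefSeq table of GRCh38.p14. The model was tested on simulated data. Members, lists and tests were chosen with earlier results of these data known. Named are all member probes, CFC1, the other BCL2 family genes, MDM2, MYCN and up to 4 genes per list with the largest called differences without overlap. CD68 was chosen after its value was seen. Of the genes in the pathway lists, 4 were not analysed here. Alternatives were the replicate number as a block, 2 other scalings, array weights, a variance trend, unmoderated variances, gene means, named probes alone, natural logarithms and the omission of each array. Quantile normalization gives every array the same distribution of values. Here it was applied to values already set against a baseline of each probe, so it can itself enlarge or shrink a difference. How much of a change under it comes from the scaling was not tested. Without scanner files, background correction and a filter on dim probes could not be varied.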

Additional observations from a re-analysis of the deposited data

Results flagged for a closer look

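In 3 of 92 groups of 4 arrays, 1 array lay apart from the others by Dixon's gap criterion, which chance meets in about 1 of 20 groups. On HRK probe A_23_P25194, mock replicate 2 was lowest at 3.358, still far above every array labelled CFC1. BIK had CFC1 replicate 3 lowest at -0.6884, and without that array its difference was 0.403 and passed (adjusted p = 0.0301). BTRC had CFC1 replicate 1 lowest at 0, with the other arrays labelled CFC1 at 0.163 to 0.180 and all mock arrays above 0.8.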

How the results depend on the processing

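Of the 12 called member probes, 9 kept direction and call under all 17 alternatives. The member count ran from 9 genes with gene means to 13 probes, and from 11 to 12 with an array left out. The CFC1 probe passed with array weights (-0.805, adjusted p = 0.0460), with gene means or named probes alone (-0.796, adjusted p = 0.0398 and 0.0416), and without CFC1 replicate 1 or mock replicate 4 (-0.941 and -0.944), and ran from -0.944 to -0.568 with an array left out. With gene means 12456 of 21524 features passed, 6388 higher and 6068 lower. That is 57.9% of them, against 42.1% of the 50599 probes. The guardian median was -0.443 after quantile normalization, -0.736 with arrays centred, -0.180 with gene means and -1.12 as natural logarithms, and ran from -0.808 to -0.735 with an array left out. The effector median was 0.528, 0.332, 0.393 and 0.418 in the same order, and 0.267 to 0.333 with an array left out. The BH3-only median changed sign after quantile normalization (0.0677), with arrays centred (0.00674), with gene means (0.0712) and without mock replicate 2 (0.0169), running from -0.0786 to 0.0169 with an array left out. Uncalled probes also changed sign: BAX probe A_23_P208706 after quantile normalization (0.00107) and with gene means (0.118, where it is averaged with the other BAX probe), BCL2L11 probe A_33_P3251932 after quantile normalization (0.0677), with arrays centred (0.00674), with gene means (0.0712) and without mock replicate 2 (0.0524), BCL2L11 probe A_33_P3398526 without CFC1 replicate 2 (-0.00352, against up to 0.0415 with another array left out), and BCL2A1 without mock replicate 4 (0.00451, against down to -0.105). The causes of these shifts were not tested. Same-numbered arrays of the groups deviated together weakly (r from 0.0953 to 0.197), and each array correlated best with its own number. Differently numbered arrays had r from -0.110 to 0.0591. The labels do not say that the numbers pair samples, so the main fit has no block, and shared handling was not tested. Among member probes the replicate number as a block ended only the call of MCL1 (0.170, adjusted p = 0.0704). It raised the adjusted p-values of the other called member probes, from 2.42e-07 to 7.1e-05 for BCL2 probe A_23_P352266 and from 1.04e-07 to 8.0e-05 for BBC3. Uncalled probes could go the other way, from 0.382 to 0.245 for BAX probe A_23_P208706 and from 0.80 to 0.694 for BCL2L11 probe A_33_P3251932. Over all probes, 21980 passed with the block and 21289 without it.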
